A study of Homo sapiens with 30 samples.

Results

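The comparison was between 3 arrays of THP-1 cells kept for 24 h with multi-walled carbon nanotubes (MWCNT) at 10 µg/ml and 3 arrays of control cells kept for 24 h with no particles (0 µg/ml). The labels chose these 6 arrays of the 30 in the series, and all genes that a probe set of a single gene measured were followed, 10050 in number. THP-1 is an established human acute monocytic leukaemia line, so that every culture came from 1 line. Before exposure the cells of every group, controls included, had received the phorbol ester PMA at 82 nM for 24 h, which makes them adherent and macrophage-like. They were then scraped and plated again with the particles. RNA was taken from the washed adherent cells of each flask, and 3 µg of total RNA was labelled for a 3-prime Affymetrix array. The other groups used here for comparison were MWCNT at 100 µg/ml for 24 h, titanium dioxide nanobelts (TiO2-NB) at 10 µg/ml for 24 h, and MWCNT at 10 µg/ml with its own control at 1 h, each of 3 arrays that the labels call biological replicates.

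Carbon nanotubes are long fibres that macrophages take up by phagocytosis. Particles of this shape are known for damage to the lysosome, activation of the NLRP3 inflammasome that matures interleukin-1 beta, signalling through NF-kappaB to cytokine and chemokine genes, and oxidative stress that the transcription factor NRF2 answers with genes such as HMOX1. An array measures the pooled RNA of the washed adherent cells of a flask, so fewer cells of a state and less RNA per cell cannot be told apart.

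Values below are log2 robust multi-array average (RMA) levels, on which a step of 1 is a doubling of signal, and differences are log2 differences. The 6 arrays correlated with each other at r = 0.992 to 0.998 over the genes tested, within and between the groups. Markers of macrophages fitted the label: of the 6 measured of 8 listed (CD14, CSF1R, ITGAX, ITGAM, CYBB and LYZ), all 6 lay above the array median on all 6 arrays. Their summed level, on the log2 scale, was 13.29 to 13.45 in MWCNT cells and 13.26 to 13.36 in control cells. None of 6 epithelial and none of 5 lymphocyte markers lay above the median on all arrays, against 1 of 5 fibroblast markers (COL1A1) and 2 of 4 endothelial markers (PECAM1 and VWF). The 3rd replicates deviated most from their group means, by a root mean square of 0.14 in MWCNT cells and 0.15 in control cells.

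No gene passed the test at 10 µg/ml. In limma's moderated test with Benjamini-Hochberg adjustment, 0 of 10050 genes (0%) had an adjusted p under 0.05. At an unadjusted p under 0.05 there were 421 genes (4.19%), 198 higher and 223 lower in MWCNT cells, where an even spread of p-values would give 502.5. That count rested on single arrays: it was 137 without the first control replicate, 765 without the second, and 231 without the second MWCNT replicate. The smallest adjusted p, 0.434, belonged to DRD5, a dopamine receptor gene at a dim level, with a difference of -0.41 ± 0.08 (SE). DRD5 was named for that p after its values were seen.

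The data bound how large a change could have been missed. The median standard error of a difference was 0.10, and the 95% confidence interval of a typical gene reached 0.21 to either side, which is 1.16-fold. For 9580 genes (95.3%) the whole interval lay within a 1.5-fold change in either direction, and for 10007 (99.6%) within a 2-fold change. Only 11 genes had an estimate beyond 1.5-fold, and 2 of them, VCAM1 and NPTX1, beyond 2-fold.

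The 5 genes with the largest positive differences, among those whose arrays did not overlap and whose unadjusted p was under 0.05, were VCAM1, TNFAIP6, CCL4, LAMP3 and CXCL10, none of them called. VCAM1, an adhesion molecule that binds leukocyte integrins, had levels of 7.10, 6.99 and 6.26 in MWCNT cells, against 5.71, 5.90 and 5.74 in control cells. Its difference was 1.00 ± 0.25 (2.01-fold, 95% interval 0.50 to 1.51), with an adjusted p of 0.684 by limma. The 3rd MWCNT array was lower than the other 2 and still above every control.

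TNFAIP6 encodes a secreted hyaluronan-binding protein induced by TNF and interleukin-1. It stood at 6.80, 6.74 and 7.09 in MWCNT cells, against 5.74, 5.60 and 6.37 in control cells, a difference of 0.97 ± 0.40. A second TNFAIP6 probe set gave 1.01. The 3rd replicate was the highest in both groups, so that the levels separated more clearly within each replicate number than between the groups as a whole.

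The chemokine CCL4, which attracts monocytes and T cells, had 9.37, 9.52 and 9.32 in MWCNT cells, against 8.39, 8.56 and 8.79 in control cells. The difference was 0.82 ± 0.23 (1.77-fold), with an unadjusted p of 0.0014. CCL4 did not pass in the fit of all 30 arrays (limma adjusted p = 1.0), but in a fit of only the 15 arrays at 24 h it passed, with an adjusted p of 0.0073. It was the only gene to pass there.

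CXCL10, an interferon-inducible chemokine for T cells, had 6.75, 6.73 and 6.65 in MWCNT cells, against 6.11, 6.14 and 6.01 in control cells. The difference was 0.62 ± 0.20, and the 3 arrays within each group lay close together. LAMP3, a lysosomal membrane protein of maturing dendritic cells, was dim: 4.27, 4.22 and 4.12 in MWCNT cells, against 2.92, 3.76 and 3.76 in control cells, a difference of 0.72 ± 0.28. The first control array was far below the other 2.

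The same rule gave 6 genes with the largest negative differences. NPTX1, a secreted protein of the pentraxin family known from neurons, had 8.02, 7.94 and 7.58 in MWCNT cells, against 9.24, 9.35 and 8.30 in control cells. The difference was -1.12 ± 0.28 (limma adjusted p = 0.684), and the 3rd replicate was the lowest in both groups. CYP1B1, a cytochrome P450 and a target of the aryl hydrocarbon receptor, had 10.01, 9.84 and 10.22 in MWCNT cells, against 10.71, 10.74 and 10.59 in control cells. Its difference was -0.66 ± 0.25. Of 3 further CYP1B1 probe sets, the other 2 bright ones gave -0.66 and -0.60, and a dim one gave 0.02.

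NKX3-2, a homeobox gene of skeletal development, had the lowest unadjusted p of the 11 named, with 4.48, 4.58 and 4.17 in MWCNT cells, against 5.23, 4.90 and 5.21 in control cells. The difference was -0.70 ± 0.16 (limma adjusted p = 0.606). CDCP1, a transmembrane substrate of Src kinases, had 6.62, 6.47 and 6.38 in MWCNT cells, against 7.08, 6.90 and 6.82 in control cells, a difference of -0.44 ± 0.13. CPN1, a carboxypeptidase subunit, differed by -0.47 ± 0.13, and ATG10, an autophagy conjugation enzyme, by -0.43 ± 0.12.

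NKX3-2, CPN1 and ATG10, like DRD5, belonged to the dimmest 2010 of the genes tested when these were split by mean level into 5 bins of that size, and so did VCAM1 and LAMP3, whose differences were positive. In that bin the median difference between MWCNT and control cells was -0.04, and 154 genes lay wholly below the control arrays while 47 lay wholly above them. In the brightest bin the median was 0.02, with 36 genes wholly below and 146 wholly above. The part of signal level in the negative differences of the dim genes was not tested.

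**Figure D1:**
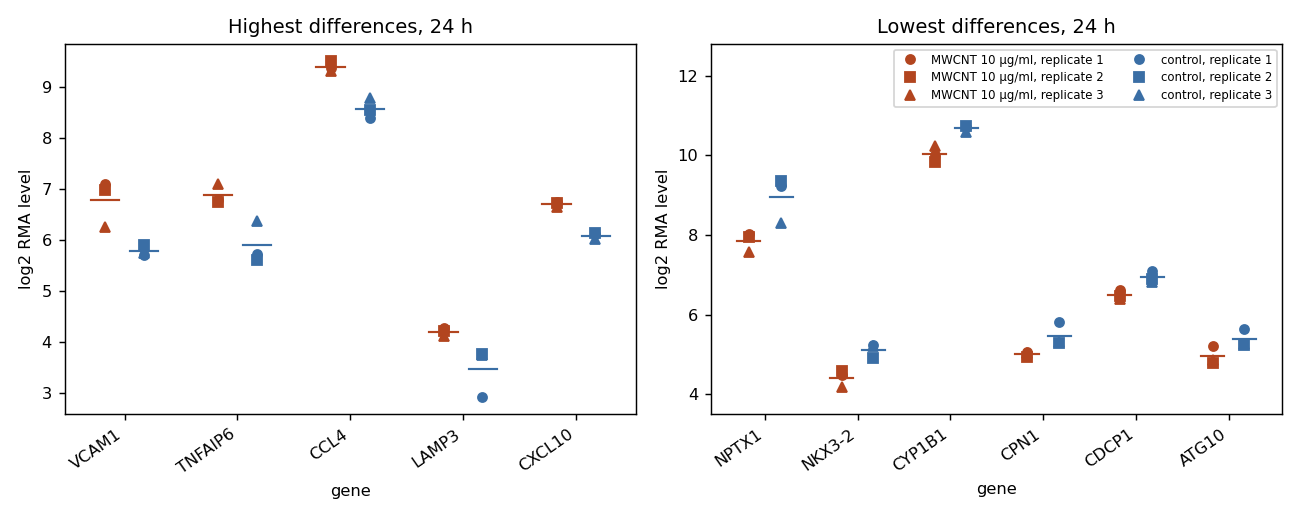
Log2 RMA level (vertical axis) on each of the 3 MWCNT 10 µg/ml arrays (red) and the 3 control arrays (blue) at 24 h for the 5 named genes with the largest positive (left) and the 6 with the largest negative (right) difference; point shapes mark replicate numbers and lines are group means. The groups of each gene do not overlap, and none of the 11 passed the adjusted test over 10050 genes in the fit of all arrays.

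Promoter sequences of VCAM1 and CXCL10 are shown because those were the named genes in which both a binding motif of NF-kappaB and an interferon-stimulated element were found. They come from RefSeq (GRCh38.p14), are written 5′ to 3′ along the gene, and carry the motif matches in capitals. The CXCL10 stretch starts 250 bases before the start of transcription (chr4:76023598-76023747, minus strand). The VCAM1 stretch covers the last 120 bases before the start (chr1:100719622-100719741, plus strand).
CXCL10: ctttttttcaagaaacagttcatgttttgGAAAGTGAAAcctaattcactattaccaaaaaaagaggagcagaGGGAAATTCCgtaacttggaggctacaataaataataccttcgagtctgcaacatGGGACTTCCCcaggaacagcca
VCAM1: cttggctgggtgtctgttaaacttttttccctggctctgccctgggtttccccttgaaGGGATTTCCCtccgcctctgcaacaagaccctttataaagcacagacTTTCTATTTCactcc

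In CXCL10 the first match, GAAAGTGAAA, is the interferon element (searched on both strands as GAAA, any 2 bases, GAAA), 221 to 212 bases before the start. The other 2, GGGAAATTCC and GGGACTTCCC, are matches to the NF-kappaB motif. In VCAM1 the NF-kappaB match GGGATTTCCC lies 62 to 53 bases before the start, and TTTCTATTTC is the interferon element read on the opposite strand, 15 to 6 bases before it. Of all 27305 promoters of the same length, 3.65% held the interferon element and 10.8% the NF-kappaB motif. Among the 14 named genes with a promoter in the table, 2 and 3 held them, NKX3-2 being the third with the NF-kappaB motif. A match of letters is a description of the sequence and no evidence of binding in these cells.

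The genes for the classical responses to particles did not pass the test. HMOX1, the haem oxygenase of the NRF2 response, had 10.23, 10.24 and 10.16 in MWCNT cells, against 10.15, 10.20 and 10.23 in control cells, a difference of 0.01 ± 0.11 (95% interval -0.21 to 0.24). IL1B, interleukin-1 beta, was near the top of the array range at 13.68, 13.65 and 13.35 in MWCNT cells, against 13.70, 13.70 and 13.34 in control cells, a difference of -0.02 ± 0.20. At such levels an array responds less than linearly to RNA. MT2A, a metal-binding metallothionein, differed by -0.05 ± 0.11, CDKN1A, the p53-responsive cell cycle inhibitor, by -0.08 ± 0.10, and HMGCS1, of sterol synthesis, by 0.08 ± 0.11. ABCG1, a cholesterol exporter, differed by 0.28 ± 0.32, an interval of -0.38 to 0.93. Within replicate numbers 1, 2 and 3 the ABCG1 differences were all positive and close together, at 0.24, 0.33 and 0.26. In a fit of only the 6 arrays with the replicate number as a block, the standard error of ABCG1 was 0.054 (unadjusted p = 0.0021, limma adjusted p = 0.249).

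The cytokine genes TNF, CXCL8 and CCL2 did not pass the test either. TNF had 8.85, 8.96 and 9.43 in MWCNT cells, against 8.51, 8.69 and 9.31 in control cells, a difference of 0.24 ± 0.21. CCL2, a monocyte chemokine, had 6.73, 6.86 and 7.01 in MWCNT cells, against 6.43, 6.47 and 6.73 in control cells. Its difference was 0.32 ± 0.22, and the groups did not overlap, by a narrow margin. CXCL8, interleukin-8, differed by 0.11 ± 0.11, and by 0.31 on its other probe set. With the replicate number as a block, the unadjusted p was 0.0010 for CCL2, 0.0089 for TNF and 0.099 for CXCL8. The limma adjusted p in that fit was 0.223, 0.295 and 0.502 in the same order.

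Same-numbered MWCNT and control arrays tended to deviate alike: their deviations from the group means correlated across genes at r = 0.40, 0.53 and 0.68. The labels do not say whether a number marks a shared day or batch. For 100 with 10 µg/ml MWCNT the correlations were -0.52, 0.20 and -0.53, so values of this size do not establish pairs. With the replicate number as a block in a fit of the 6 arrays, the median standard error was 0.061. It was 0.10 in the fit of all 30 arrays without the block. Those fits differ in their arrays as well as in the block. The block was taken up because of the correlations of MWCNT with control arrays, so the smaller error is no test of pairing. No gene passed in the blocked fit either (0 called by limma, smallest adjusted p = 0.167, CXCL10), but 1211 genes had an unadjusted p under 0.05, 636 higher and 575 lower in MWCNT cells. With the 3 TiO2-NB arrays of 10 µg/ml added, 965 genes did, and the smallest adjusted p was 0.112. A fit of the 6 arrays without the block gave 399 genes. On these 6 arrays the count at the unadjusted threshold thus depends on whether the numbers are taken as pairs. In the fit of all 30 arrays the count was 442 with the block (204 higher and 238 lower) and 421 without it.

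**Figure D2:**
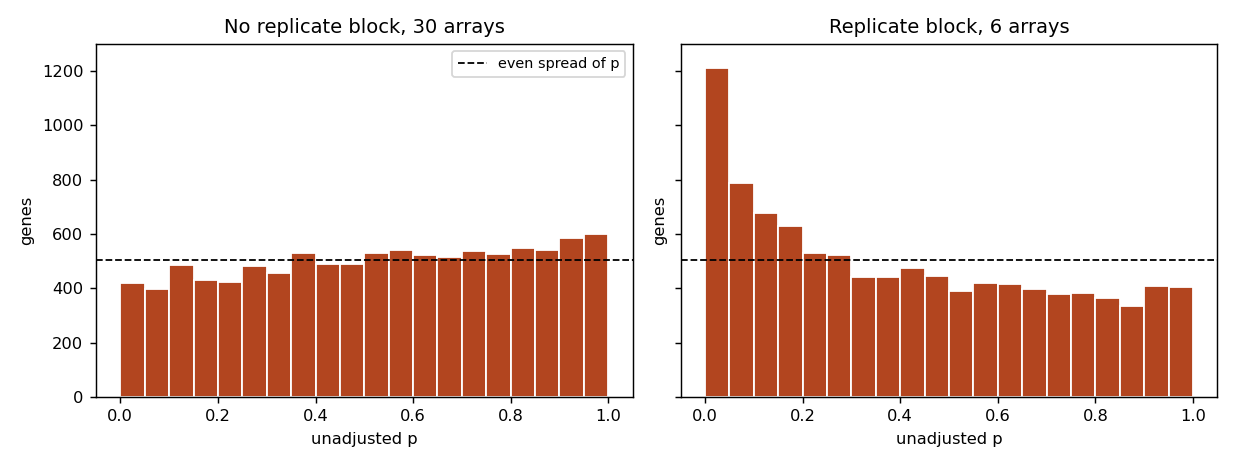
Number of genes (vertical axis) in each bin of unadjusted p (horizontal axis) for MWCNT 10 µg/ml against control at 24 h, in the fit of all 30 arrays without a replicate block (left) and in the fit of the 6 arrays with it (right); the dashed line marks the 502.5 genes per bin of an even spread. The lowest bin holds 421 genes on the left and 1211 on the right.

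Counts of genes whose 3 MWCNT arrays all lay on one side of the 3 control arrays describe the gene groups without a threshold on p. Over all 10050 genes, 467 (4.65%) lay wholly above and 371 (3.69%) wholly below the controls, the median difference was 0.01, and 56% of the differences were positive. All lists below had 0 genes called at 10 µg/ml by the adjusted test. Genes named from the lists here, other than those above, were chosen after their values were seen.

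Interferon-stimulated genes, the antiviral effectors and sensors that interferons switch on, had 16 of 38 members wholly above the controls and none wholly below. Their median difference was 0.22, 35 of 38 were positive, and 16 had an unadjusted p under 0.05. TRIM22, an antiviral ubiquitin ligase, had 6.77, 7.02 and 7.07 in MWCNT cells, against 6.43, 6.65 and 6.42 in control cells, a difference of 0.46 ± 0.13. ISG15, a ubiquitin-like modifier, had 10.04, 9.99 and 10.07 in MWCNT cells, against 9.74, 9.78 and 9.76 in control cells, a difference of 0.28 ± 0.12.

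IFI44 differed by 0.54 ± 0.20 and MX1, an antiviral GTPase, by 0.52 ± 0.22. The RNA sensor gene IFIH1 differed by 0.37 ± 0.12, and the oligoadenylate synthetase genes OAS1, OAS2 and OAS3 by 0.31 ± 0.14, 0.34 ± 0.16 and 0.31 ± 0.12. The 3rd control array was low for several of these: MX1 stood at 7.94, 7.80 and 7.14 in control cells, and IFIT1 at 6.33, 6.55 and 5.29. Within replicate numbers 1, 2 and 3 the list's median difference was 0.15, 0.19 and 0.35, and without any 1 of the 6 arrays it lay between 0.18 and 0.24. IFIT2, by contrast, differed by -0.14 ± 0.11, and IFI6 by -0.03 ± 0.16.

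The list of NF-kappaB subunits and feedback targets holds the subunits, inhibitors induced to limit the signal, and other targets such as ICAM1, GCH1 and BCL2A1. It had 9 of 19 members wholly above the controls and none wholly below. The median difference was 0.20, with 18 of 19 positive and medians of 0.28, 0.18 and 0.16 within replicate numbers 1, 2 and 3. TNFAIP3, the ubiquitin-editing inhibitor A20, had 10.40, 10.45 and 10.65 in MWCNT cells, against 10.07, 10.07 and 10.36 in control cells, a difference of 0.33 ± 0.12. NFKBIA, the inhibitor that holds NF-kappaB in the cytoplasm, had 11.34, 11.38 and 11.43 in MWCNT cells, against 11.07, 11.07 and 11.28 in control cells. Its difference was 0.25 ± 0.16. TNIP1, a partner of A20, differed by 0.21 ± 0.08 and ICAM1, an adhesion molecule, by 0.18 ± 0.11.

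Among 33 cytokines and chemokines, 6 lay wholly above the controls and none wholly below, and the median difference was 0.11. Besides CCL4, CXCL10 and CCL2 these were CXCL2, EBI3 and IL23A. CXCL2, a neutrophil chemokine, had 7.86, 8.04 and 8.28 in MWCNT cells, against 7.18, 7.54 and 7.86 in control cells, a difference of 0.53 ± 0.18. CCL20, a chemokine for lymphocytes and dendritic cells, had 11.56, 11.60 and 12.30 in MWCNT cells, against 10.80, 10.96 and 11.94 in control cells. Its groups overlapped, since the 3rd replicates of both were high, and the difference was 0.59 ± 0.23. OSM, oncostatin M, differed by -0.19 ± 0.08.

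Genes of mitosis and of DNA replication also had mostly positive differences. Of 56 mitosis and spindle genes, 13 lay wholly above the controls and 1 wholly below, with a median difference of 0.18 and 46 positive. CDK1, the mitotic kinase, had 6.89, 7.18 and 7.20 in MWCNT cells, against 6.59, 6.82 and 6.82 in control cells, a difference of 0.35 ± 0.21. CEP55, needed for the last step of cell division, differed by 0.49 ± 0.19. The gene wholly below was CENPA, the centromeric histone, at -0.27 ± 0.11, and MKI67, a proliferation marker, differed by -0.17 ± 0.19.

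Of 50 DNA replication genes, 43 had positive differences with a median of 0.15, yet only 2 (LIG1 and GINS3) lay wholly above the controls. TYMS, thymidylate synthase, shows how: it had 8.70, 8.80 and 9.37 in MWCNT cells, against 8.27, 8.40 and 9.18 in control cells. Each MWCNT array was higher than the control of its number, while the 3rd replicates were higher than the others in both groups. The replication list's median was 0.03 without the 3rd MWCNT replicate, 0.06 without the first control replicate and 0.28 without the 3rd control replicate. Of 26 ribosome biogenesis genes 25 had positive differences, with a median of 0.12 (0.068 without the first control replicate) and 4 wholly above the controls.

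The aryl hydrocarbon receptor pathway, which senses aromatic ligands, had 3 of 11 genes wholly below the controls and none wholly above, with a median of -0.07 that lay between -0.13 without the 3rd and -0.03 without the first MWCNT replicate. Besides CYP1B1 these were TIPARP, a feedback repressor of the receptor, at -0.39 ± 0.20, and CYP1A1, at -0.31 ± 0.11 and a dim level. In the other direction KYNU, a kynurenine enzyme, differed by 0.41 ± 0.19 and the receptor gene AHR by 0.23 ± 0.10. Matrix remodelling and adhesion genes had 4 of 39 wholly below and 2 wholly above. MMP12, the macrophage elastase, had 8.54, 8.91 and 7.79 in MWCNT cells, against 9.28, 9.52 and 8.04 in control cells, with overlap and a difference of -0.53 ± 0.33.

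In 9 other groups the median lay between -0.06 and 0.04. NRF2 antioxidant targets had a median of 0.02 with 3 of 32 wholly above and none below, and metallothioneins and zinc export genes a median of -0.06 with none of 9 on either side. Inflammasome and pyroptosis genes had a median of 0.00 with 1 of 15 wholly above, which was NLRP3, at 0.12 ± 0.08. Lysosome genes had a median of 0.01, unfolded protein and integrated stress response genes 0.01, autophagy genes 0.03, and scavenger and phagocytic receptors 0.01. Oxidative phosphorylation genes had 6 of 34 (17.6%) wholly above the controls with a median of 0.04, and antigen presentation genes 5 of 24 (20.8%) with a median of 0.03, among them CCR7, a homing receptor, at 0.43 ± 0.17. Both shares were above the 4.65% over all genes, as were those of the immediate early genes (6 of 33, 18.2%, median 0.05) and of the Toll-like receptors and co-receptors (2 of 13, 15.4%, median 0.04). The number wholly above also rose with signal level, from 47 of 2010 genes in the dimmest bin to 146 of 2010 in the brightest. The part of signal level in the list shares was not tested. Without single arrays the median ran from -0.03 to 0.05 for the NRF2 targets and from -0.12 to -0.01 for the metallothioneins.

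Marker lists of other cell types had medians of -0.08 for 11 epithelial, -0.08 for 13 lymphocyte, -0.07 for 5 endothelial and 0.00 for 8 fibroblast genes. Without single arrays the median ran from -0.14 to -0.05 for the epithelial and from -0.11 to -0.02 for the lymphocyte genes, nearest to 0 without the first control replicate and furthest without the second. Sums were taken over the other marker sets, those set against the array median above: 6 epithelial, 5 lymphocyte, 5 fibroblast and 4 endothelial genes. These sets share only some genes with the lists. The summed level of the epithelial markers was 7.47 to 7.52 in MWCNT cells and 7.59 to 7.68 in control cells. That of the lymphocyte markers was 7.41 to 7.49 in MWCNT cells and 7.52 to 7.62 in control cells. The fibroblast markers summed to 8.27 to 8.41 in MWCNT cells and 8.40 to 8.63 in control cells, and the endothelial markers to 11.33 to 11.44 in MWCNT cells and 11.37 to 11.52 in control cells. Of the epithelial markers, EPCAM, CDH1 and KRT19 were not above the 25th percentile on every one of the 6 arrays. The same held for the lymphocyte markers CD2 and MS4A1, the fibroblast markers COL1A2, COL3A1 and LUM, and the endothelial markers CDH5 and KDR. The part of these dim genes in any other result was not tested.

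**Figure D3:**
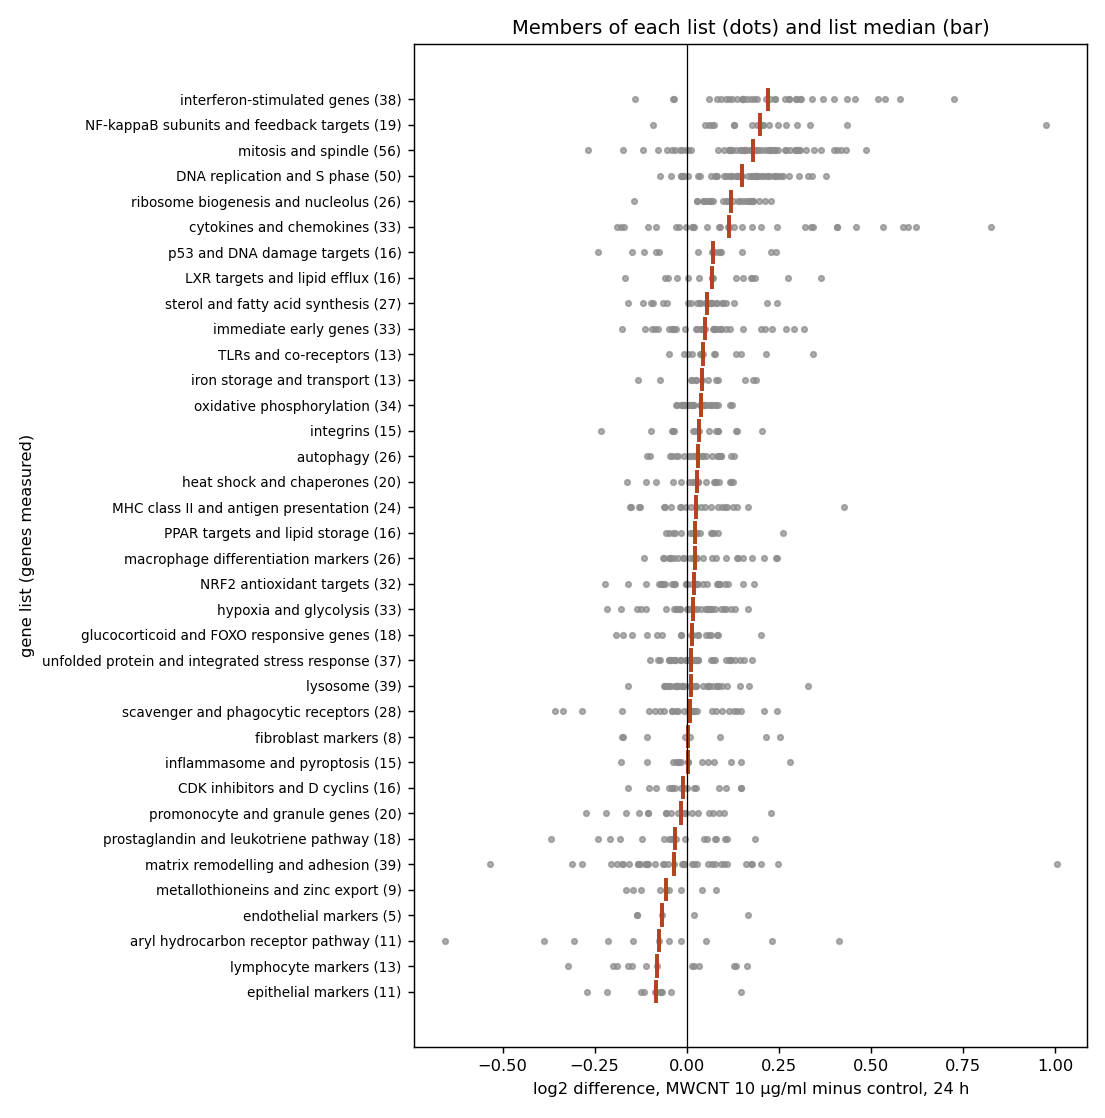
Log2 difference, MWCNT 10 µg/ml minus control at 24 h (horizontal axis), of every measured gene (dots) in 36 gene lists, ordered by the list's median (red bars), with the number of genes in brackets. Interferon-stimulated genes (median 0.22) and NF-kappaB genes (0.20) stand at the top and epithelial markers (-0.08) at the bottom, and no gene in any list passed the adjusted test.

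How the low dose stood to the high one was tested directly, as MWCNT at 100 µg/ml minus MWCNT at 10 µg/ml, which involves no control array. In limma's adjusted test 469 genes differed (4.67%), 312 higher (3.1%) and 157 lower (1.56%) at 100 µg/ml, and 173 of them by at least 1.5-fold. Without single arrays the count was at most 411, and it was 197 and 267 without the first and the second 10 µg/ml replicate, and 245 and 218 without the second and the 3rd 100 µg/ml replicate. Against the control, 100 µg/ml gave 1309 genes (13%), 903 higher (8.99%) and 406 lower (4.04%), and 10 µg/ml gave 0 in the same fit. Those 2 comparisons share the control arrays.

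All 5 named genes with the largest positive differences at 10 µg/ml were higher again at 100 µg/ml by the adjusted test. At 0, 10 and 100 µg/ml, VCAM1 averaged 5.78, 6.78 and 8.09, and the step between 10 and 100 µg/ml was 1.30 ± 0.25 (limma adjusted p = 0.0027). CCL4 averaged 8.58, 9.40 and 10.97, with a step of 1.57 ± 0.23 (adjusted p = 0.00022), and CXCL10 averaged 6.09, 6.71 and 7.92, with a step of 1.21 ± 0.20 (adjusted p = 0.00067). TNFAIP6 averaged 5.90, 6.88 and 8.82, a step of 1.94 ± 0.40 (adjusted p = 0.0054). LAMP3 averaged 3.48, 4.20 and 5.79, a step of 1.59 ± 0.28 (adjusted p = 0.0014). The VCAM1 call was lost in a fit of only the 6 arrays compared (adjusted p = 0.106). The steps below and above 10 µg/ml share the arrays of that dose.

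NPTX1 averaged 8.96, 7.85 and 5.66 at 0, 10 and 100 µg/ml, and fell by 2.19 ± 0.28 on the log2 scale between 10 and 100 µg/ml (adjusted p = 6.01e-05). CYP1B1 averaged 10.68, 10.02 and 8.24 and fell by 1.79 ± 0.25 (adjusted p = 0.00012). The other named genes with negative differences at 10 µg/ml did not pass the test between the doses: at 100 minus 10 µg/ml NKX3-2 differed by 0.40 ± 0.16, CPN1 by 0.19 ± 0.13, ATG10 by 0.26 ± 0.12 and CDCP1 by -0.32 ± 0.13.

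For some genes the arrays at 10 µg/ml overlapped the controls while those at 100 µg/ml stood apart. SPINK1, a trypsin inhibitor, had 4.07, 4.04 and 4.39 at 10 µg/ml and 6.29, 6.09 and 5.88 at 100 µg/ml, a difference of 1.92 ± 0.18 (limma adjusted p = 1.19e-06), and its difference at 10 µg/ml from control was 0.16 ± 0.18. CCL19, a chemokine for CCR7, rose by 1.75 ± 0.20 and DAZL, a germ-cell RNA-binding protein gene, by 1.61 ± 0.15 between 10 and 100 µg/ml, and their differences at 10 µg/ml from control were -0.08 ± 0.20 and 0.21 ± 0.15. GJA1, connexin 43, fell by 1.32 ± 0.29 (adjusted p = 0.0088) and differed from control at 10 µg/ml by -0.01 ± 0.29. Its call was lost without the first 10 µg/ml replicate (adjusted p = 0.060) or the second (adjusted p = 0.064).

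ZNF395, a zinc finger transcription factor gene, and IPCEF1, an exchange factor regulator, stood between. ZNF395 differed by -0.40 ± 0.22 at 10 µg/ml from control and by -1.32 ± 0.22 at 100 from 10 µg/ml (adjusted p = 0.00087). IPCEF1 differed by -0.29 ± 0.20 at 10 µg/ml from control and by -1.25 ± 0.20 at 100 from 10 µg/ml (adjusted p = 0.00062). Both had the 3 MWCNT arrays of 10 µg/ml below the 3 controls.

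**Figure D4:**
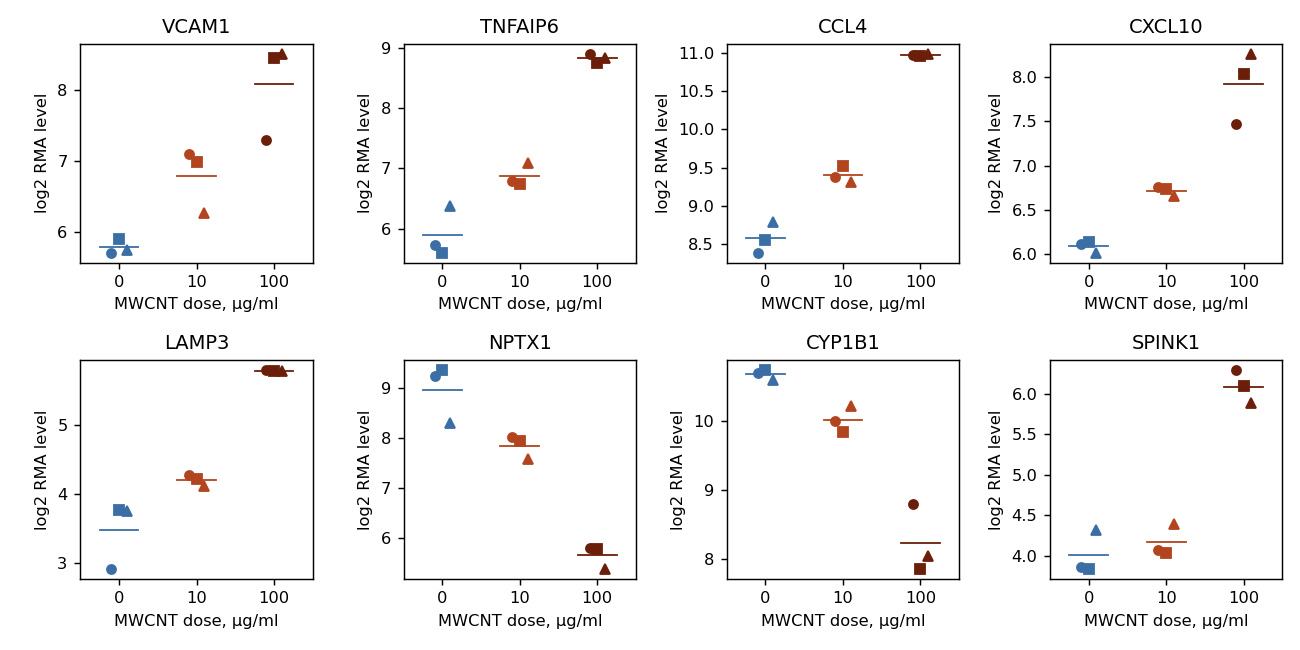
Log2 RMA level (vertical axes, differing between panels) of 8 genes at 24 h against MWCNT dose (horizontal axis, 0, 10 and 100 µg/ml, evenly spaced); circles, squares and triangles are replicates 1, 2 and 3, and lines are means of 3 arrays. VCAM1, TNFAIP6, CCL4, CXCL10 and LAMP3 have their 10 µg/ml mean between the others, as do NPTX1 and CYP1B1 in the falling direction, while SPINK1 at 10 µg/ml (mean 4.17) lies near its control (4.01).

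The gene lists were counted in the same comparison, in which 3.1% of all genes rose and 1.56% fell by the adjusted test. Between 10 and 100 µg/ml, 20 of 38 interferon-stimulated genes rose and none fell, with a median difference of 0.52. Of 19 NF-kappaB genes 9 rose and none fell (median 0.36), and of 33 cytokines and chemokines 12 rose and none fell (median 0.44). DNA replication genes rose in 30 of 50 (median 0.60) and mitosis genes in 28 of 56 (median 0.59), with none falling. Of 11 aryl hydrocarbon receptor genes 1 rose and 4 fell, and of 28 scavenger and phagocytic receptors 4 fell and none rose. These counts depended on single arrays: without the first 10 µg/ml replicate the replication genes that passed numbered 11, the mitosis genes 11, the cytokines 7 and the NF-kappaB genes 4, and without the 3rd 100 µg/ml replicate the interferon-stimulated genes numbered 12. For the scavenger receptors 1 passed without the second 10 µg/ml replicate, and for the aryl hydrocarbon receptor genes 1 without the second 100 µg/ml replicate.

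Single members of these lists show the sizes. TRIM22 rose by 1.05 ± 0.13 between 10 and 100 µg/ml (adjusted p = 6.0e-05). TYMS rose by 1.15 ± 0.23 (adjusted p = 0.0041) and TNFAIP3 by 0.54 ± 0.12 (adjusted p = 0.011, but 0.0698 without the first and 0.0503 without the second 10 µg/ml replicate). CD300A, an inhibitory myeloid receptor, fell by 1.09 ± 0.16 (adjusted p = 0.00020), and had differed by -0.33 ± 0.16 at 10 µg/ml from control.

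At the same dose and time MWCNT differed from TiO2-NB in 1 gene of 10050 (0.00995%) by limma's adjusted test, and 1033 genes had an unadjusted p under 0.05. The gene was ANKRD11, a chromatin regulator, with 7.30, 7.17 and 7.37 in MWCNT cells, against 6.40, 6.09 and 5.55 in TiO2-NB cells, a difference of 1.27 ± 0.20 (adjusted p = 0.011). Its controls stood at 7.33, 7.53 and 7.58, so that MWCNT cells were near the control level, with a difference of -0.20 ± 0.20. The call was lost in a fit of the 6 arrays compared (adjusted p = 0.227), in that fit with the replicate block (adjusted p = 0.177), and without the 3rd TiO2-NB replicate (adjusted p = 0.215), the second (0.057), or the first or 3rd MWCNT replicate (0.098 and 0.085).

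The genes named at 10 µg/ml did not pass the test between the materials. MWCNT minus TiO2-NB was 0.35 ± 0.25 for VCAM1, -0.05 ± 0.23 for CCL4, 0.31 ± 0.20 for CXCL10, 0.47 ± 0.40 for TNFAIP6 and -0.95 ± 0.28 for NPTX1. The median of the interferon-stimulated genes was 0.21 for MWCNT minus TiO2-NB, that of the NF-kappaB genes 0.03 and that of the cytokines and chemokines -0.05. Both materials were set against the same control arrays, from which the medians for TiO2-NB were 0.05, 0.14 and 0.25 for these lists in that order.

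After 1 h with 10 µg/ml MWCNT no gene differed from the 1 h control either (0 of 10050, 0%, by limma; 162 at an unadjusted p under 0.05). VCAM1 differed by -0.02 ± 0.25, TNFAIP6 by 0.00 ± 0.40, CCL4 by 0.05 ± 0.23, CXCL10 by 0.05 ± 0.20 and NPTX1 by -0.13 ± 0.28 at 1 h. CYP1B1 differed by -0.44 ± 0.25. The interferon-stimulated and NF-kappaB lists had medians of 0.00 and -0.02 at 1 h, against 0.22 and 0.20 at 24 h. A test of the response at 24 h against that at 1 h called 0 genes (0%) in limma, with 408 at an unadjusted p under 0.05 and a smallest adjusted p of 0.271, so a growth of the response with time was not shown for any single gene. For VCAM1 the difference between the responses was 1.02 ± 0.35.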

How the data were processed

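The deposited values are log2 intensities of 22277 probe sets on 30 arrays, which the authors made by robust multi-array average (RMA) per the submitters' processing notes; no version or build is given in the sources used here. They were not normalized again. Of the probe sets 19064 matched 1 gene in the platform table, 1043 several, 2108 none and 62 were controls. Probe sets brighter than the 25th percentile on 3 or more arrays were kept (15309), and the brightest stood for its gene. Tests used limma 3.58.1 in R 4.3.3, as 1 fit of 10 group means with 20 residual degrees of freedom, two-sided, Benjamini-Hochberg over 10050 genes, called under 0.05. Errors are standard errors. An array gives no depth, and the number of arrays limits precision.

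Same-numbered arrays at 24 h were taken as paired where every correlation of deviations exceeded 0.1; this holds for MWCNT at 10 µg/ml with control and with TiO2-NB at 10 µg/ml, comes from the data alone, and does not hold for 100 with 10 µg/ml. Named were the 6 largest differences each way without overlap and with unadjusted p under 0.05 (1 of them is not reported here), the 5 largest called each way in the other comparisons, and 9 fixed genes of classical particle responses (cytokines TNF, IL1B, CCL2, CXCL8; stress genes HMOX1, MT2A, CDKN1A; lipid genes ABCG1, HMGCS1). Promoters of the genes named for their differences were searched, since none was called at 10 µg/ml. The comparison, genes and 36 lists were chosen with earlier results of these data known. The main fit was tested on simulated data with independent noise, for MWCNT at 10 µg/ml against control at 24 h only. The fits with a block and the other comparisons were not simulated. The alternatives changed the arrays in the fit, the block, the filter, the normalization, the probe set rule and the moderation, and left out each array.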

Additional observations from a re-analysis of the deposited data

Results flagged for a closer look

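ANKRD11 was the gene whose level at 10 µg/ml for 24 h differed between the 2 materials by the adjusted test: MWCNT minus TiO2-NB was 1.27 on the log2 scale, with 3 of 3 MWCNT arrays above all TiO2-NB arrays. The call depended on single arrays and on the fit, as given with its values above, and a cause was not tested. Groups of 3 arrays are too small for a test of single outlying samples.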

How the results depend on the processing

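For MWCNT at 10 µg/ml against control at 24 h, the number of genes called was 0 in every alternative except the fit of the 15 arrays at 24 h, where it was 1 (CCL4). The count at an unadjusted p under 0.05 was 1211 with the replicate block on 6 arrays, 965 with it on 9 arrays and 442 with it on all 30 arrays. With the stricter filter, which tested fewer genes, it was 263 (183 higher and 80 lower), against 198 higher and 223 lower in the main fit. It ran from 137 (without control replicate 1) to 765 (without control replicate 2) when single arrays were left out. The cause was not tested for any of these counts. The 100 against 10 µg/ml count was 49 with the replicate block on its 6 arrays, whose same-numbered deviations correlated at -0.52, 0.20 and -0.53, and 197 to 411 without single arrays; VCAM1, CXCL10, CCL19, GJA1, TYMS, TNFAIP3 and CD300A were lost under that block (adjusted p = 0.079 to 0.249), and the genes called numbered 2 for replication, 7 for mitosis, 5 for interferon-stimulated genes, 2 for cytokines and 2 for NF-kappaB. The MWCNT against TiO2-NB count was 0 with only the 6 arrays or their replicate block, 4 with the arrays of 24 h, and 0 to 1 without single arrays. No call at 1 h or between times appeared in any alternative. The 11 named differences kept their sign in every alternative run. Where arrays were left out or a block was added, their choice without overlap had fixed that sign in advance. Differences near 0 changed sign: HMOX1 was -0.0118 after cyclic loess, and without single arrays HMOX1 ran from -0.00666 to 0.0413, IL1B from -0.142 to 0.0827, MT2A from -0.14 to 0.0236 and HMGCS1 from -0.0141 to 0.175. Alternatives for the unadjusted count, the list values and the dose genes were chosen after seeing the data. Signal limits the dim genes, IL1B sits near the top of the range, and 3 arrays a group leave changes within the stated intervals undecided.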
